A study of Sus scrofa with 2 samples.

Results

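Osteopontin and lysozyme are 2 secreted proteins of the innate immune and tissue repair systems, encoded by SPP1 and LYZ. Both genes were followed here in longissimus dorsi, a muscle along the spine, of pigs kept warm for 21 days. The genes were taken by symbol from the deposited table of expression levels. SPP1 is entry ENSSSCG00000009216 and LYZ is entry ENSSSCG00000000492, so the members are 2 of 27987 entries, and each symbol stood on 1 entry. Both were singled out because earlier results on the same libraries placed them among the genes that were more than 2-fold higher in the heat library. Their levels are therefore a description, and the 2-fold difference itself is how they were found.

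The pigs were DLY barrows, that is castrated males from Duroc boars crossed with Yorkshire-Landrace sows, weighing 79.0 ± 1.5 kg and drawn from 8 litters. Of the 16 pigs, 8 lived at a constant 22 °C (control) and 8 at a constant 30 °C (heat) for 21 days. The sources used here do not state the age of the pigs. Each arm has 1 messenger RNA library, and the sources do not say whether RNA of several pigs went into it. With 1 library per arm there is no spread between pigs, no test can be made, and the effects of temperature, of the animals and of library making cannot be told apart. Levels are in RPKM, which are read numbers divided by gene length and by library size. The control library held 23608242 reads and the heat library 22863584, as worked out from the RPKM values. Skeletal actin ACTA1, which defines the labelled tissue, was at 68749 RPKM (control) and 65219 RPKM (heat), while the fibre genes CKM and MB were not matched to an entry.

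Osteopontin is a phosphorylated, acidic glycoprotein that belongs to the SIBLING family of mineral-binding matrix proteins. It carries an arginine-glycine-aspartate motif through which cells hold on to it by integrins, and it also binds the hyaluronan receptor CD44. In muscle it is known from macrophages and activated muscle precursor cells after injury, where it acts as both a matrix component and a cytokine. Lysozyme C cuts the peptidoglycan of bacterial cell walls. It is made by macrophages, by neutrophils and by secretory epithelia, and in muscle it is commonly read as a phagocyte gene.

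SPP1 was higher in the heat library, at 16.9 RPKM against 5.57 RPKM in the control library. These levels rest on at least 188 and 553 reads over a gene length of 1430 bp. The 95% counting interval (exact Poisson) of the level ran from 4.80 to 6.42 RPKM in the control library. In the heat library it ran from 15.5 to 18.4 RPKM. The 2 intervals did not overlap, but SPP1 was chosen on this contrast, so nothing is read from that. The ratio of heat to control RPKM was 3.04, with a Clopper-Pearson 95% counting interval of 2.57 to 3.60. Among entries averaging at least 1 RPKM, 20.0% of those with a ratio interval had one above 1. Such intervals cover the error of counting reads only. Reads carried no molecular identifiers, so PCR copies of a molecule count as separate reads.

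LYZ was the scarcer transcript, and it too was higher in the heat library, at 3.29 RPKM against 1.09 RPKM. It was counted on at least 25 and 73 reads over 969 bp, and a single read was worth 0.0437 RPKM in the control library. The counting interval of its level ran from 0.707 to 1.61 RPKM in the control library and from 2.58 to 4.14 RPKM in the heat library. Here too the intervals did not overlap, but LYZ was chosen on this contrast as SPP1 was, and nothing is read from that. The RPKM ratio was 3.02, and its interval of 1.89 to 4.96 was wider than that of SPP1.

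**Figure D1:**
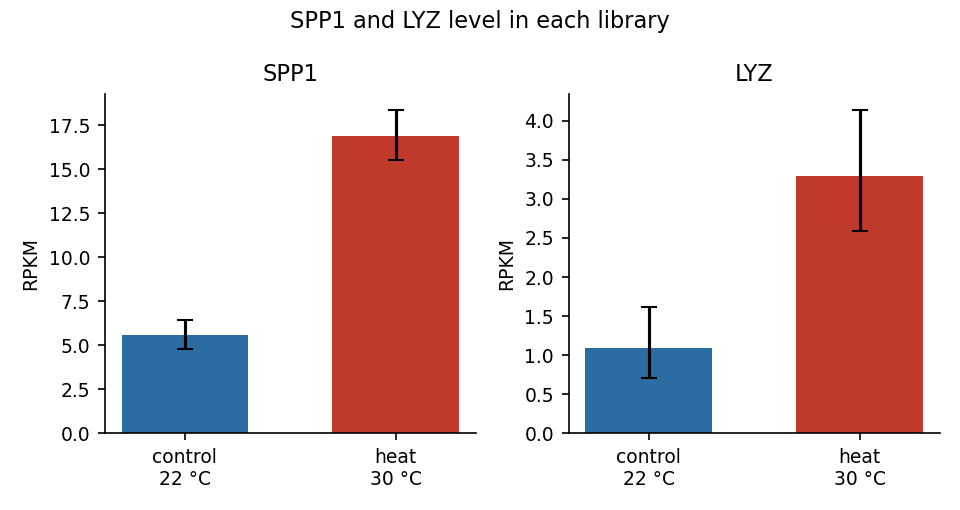
RPKM (vertical axes, each from 0) of SPP1 and LYZ in the 1 control library at 22 °C and the 1 heat library at 30 °C. Bars are the deposited values and error bars are 95% Poisson counting intervals, not the spread between pigs; SPP1 went from 5.57 to 16.9 RPKM and LYZ from 1.09 to 3.29 RPKM.

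The 2 ratios were close to each other, although the levels were not. Per length, SPP1 stood 5.10 times above LYZ in the control library and 5.13 times above it in the heat library. Both genes were chosen for being high in the heat library, so the likeness of their ratios is given as a value and nothing is drawn from it.

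To set these differences beside all other genes, the log2 ratio of (heat RPKM + 1) to (control RPKM + 1) was used, over the 13191 entries that averaged at least 1 RPKM. The added 1 RPKM, a pseudocount, keeps small levels from giving large ratios and understates the change of low genes. On this scale SPP1 had a log2 ratio of 1.45 and LYZ of 1.04. The median over all these entries was 0.05, and 95% of them lay between -0.57 and 0.66. SPP1 ranked 20th from the top over all entries and 3rd among the 6990 that carry a symbol, while LYZ ranked 71st and 8th. Both members lay past the 2-fold line, which 0.629% of all entries, and 0.143% of those with a symbol, did on the higher side, and 0.584% of all entries on the lower side. Because the members were chosen on this contrast, nothing is read from that count. The share past the line depended on level. It was 0.974% among entries with a mean RPKM from 1 to under 5, where LYZ lies, and 0.265% among those of at least 5, where SPP1 lies.

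The place of each gene among the levels within a library differed too, which restates the contrast the members were chosen on. The SPP1 level exceeded that of 55.2% of the compared entries in the control library and of 79.8% in the heat library. LYZ exceeded 5.71% of them at 22 °C and 37.4% at 30 °C. SPP1 was thus a gene of middling level in the control muscle, and LYZ was near the lower limit of the genes compared.

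The choice of pseudocount bears on LYZ more than on SPP1. With a pseudocount of 5 RPKM the log2 ratio of LYZ was 0.45 and that of SPP1 was 1.05, so LYZ no longer passed the 2-fold line. LYZ was also just short of it after centring on the median of all entries (0.99) and after trimmed mean rescaling (0.97).

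**Figure D2:**
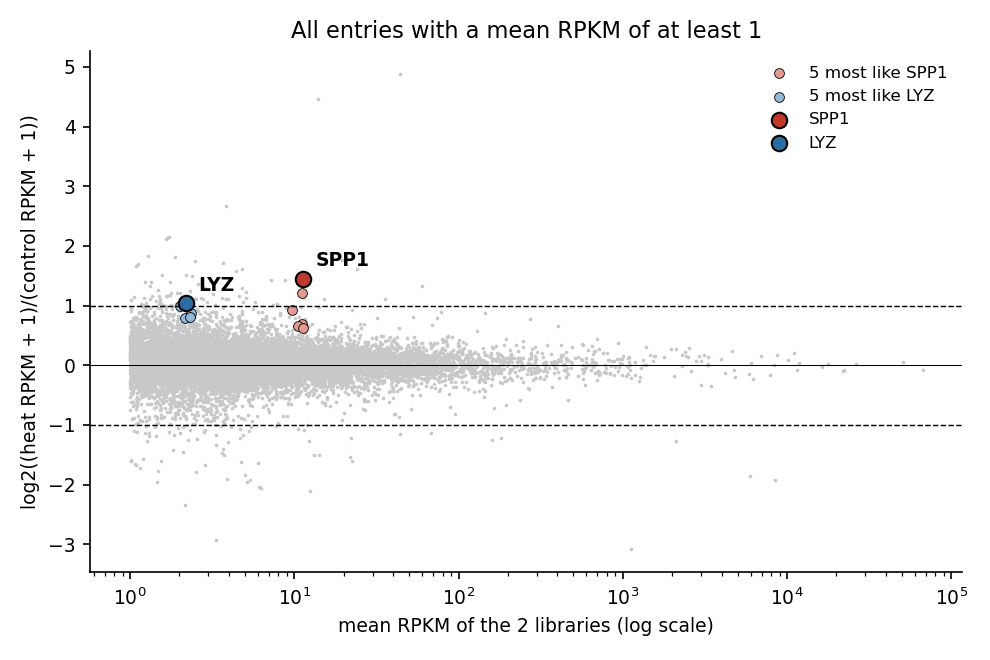
Log2 ratio of heat to control RPKM with a pseudocount of 1 (vertical axis) against mean RPKM of the 2 libraries (horizontal log axis), for 13191 entries with a mean RPKM of at least 1 (grey). SPP1 (red, 1.45) and LYZ (blue, 1.04) lie above the dashed 2-fold line at 1, and pale points are the 5 genes with a symbol closest to each in both libraries.

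The genes with the most similar pattern were sought by the distance between their log2(RPKM + 1) values and those of each member over the 2 libraries. With only 2 libraries such likeness says little more than a similar level and a similar ratio. Nearest to SPP1 were the small nucleolar RNA SNORD99 (distance 0.17), the cardiac and fetal troponin T gene TNNT2 (0.39), the ghrelin receptor GHSR (0.56), TMBIM4 (0.56) and the farnesyltransferase subunit FNTB (0.61). SNORD99 had 6.30 and 16.0 RPKM (control and heat), which are at least 11 and 27 reads. TNNT2 stood at 6.34 and 12.95 RPKM, with a ratio of 2.04 (interval 1.65 to 2.53). The SPP1 ratio lay above the ratios of all 5, but SPP1 was chosen for its difference. The SNORD99 ratio of 2.53 had an interval of 1.22 to 5.66, which holds the SPP1 ratio.

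LYZ had nearer companions. They were the coagulation inhibitor TFPI (distance 0.06), the AMP deaminase AMPD3 (0.11), the oxytocin receptor OXTR (0.18), the ubiquitin ligase RNF152 (0.18) and the protein kinase inhibitor PKIB (0.21). TFPI stood at 1.03 and 3.16 RPKM and AMPD3 at 1.02 and 3.01 RPKM in the control and heat libraries. Their counting intervals, 1.94 to 4.97 and 2.16 to 4.07, overlapped most of the LYZ interval.

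Osteopontin has close relatives that lie beside it in the genome. Of the 5 SIBLING family genes, SPP1, DMP1, IBSP and MEPE were matched to entries, while DSPP was not. SPP1 alone reached a mean of 1 RPKM. In control and heat, the dentin matrix gene DMP1 had 0.490 and 0.408 RPKM from at least 31 and 25 reads, and its ratio interval of 0.471 to 1.46 holds 1. Bone sialoprotein IBSP had 0.0571 RPKM in the control library and was listed at 0 in the other, and MEPE was listed at 0 in both. In the gene order of the Sscrofa11.1 assembly, MEPE, IBSP and DMP1 follow SPP1 on one side. On the other side its nearest named protein-coding neighbour is the polycystin gene PKD2, which stood at 3.29 and 2.998 RPKM, with a ratio of 0.910 (0.759 to 1.09). No matched neighbour within 3 named genes of SPP1 had a higher value in the heat library.

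In the lysozyme family LYZ was the only matched family member with reads in either library. The related genes LYZL4, LYZL6 and SPACA3 and the milk protein gene LALBA were listed at 0 in both, and 5 further family genes were not matched. Of the 3 named protein-coding genes on either side of LYZ in the same assembly, MDM2, FRS2 and CCT2 were matched. MDM2, the ligase that degrades p53, had 21.8 and 25.8 RPKM, a ratio of 1.18 (1.08 to 1.29). The adaptor FRS2 had a ratio of 1.09 (0.730 to 1.64) and the chaperonin subunit CCT2 one of 1.10 (1.001 to 1.21). All 3 ratios lay below the LYZ interval, but LYZ was chosen for its difference.

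The receptors of osteopontin were set beside all entries, since SPP1 itself was chosen for its difference. Of 11 listed receptor genes 10 were matched and 8 had a mean RPKM of at least 1. Of these 8, 4 lay above 0 and 4 below 0 on the log2 scale, where 58.8% of all entries lay above 0. Their median was 0.04, beside 0.05 over all entries, and it fell below 0 after centring (-0.01), after trimmed mean rescaling (-0.02) and over members of at least 5 RPKM (-0.008). None was 1.5-fold higher or lower, as 3.44% and 2.37% of all entries were.

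The most abundant receptor gene per length was ITGB1, the integrin beta chain shared by many pairs, with 62.5 RPKM in control and 68.04 RPKM in heat, a ratio of 1.09 (1.04 to 1.14). ITGA5, its fibronectin receptor partner, stood at 14.2 and 12.99 RPKM. The alpha-v chain ITGAV, which pairs with several beta chains to bind the osteopontin motif, was at 11.3 and 13.05 RPKM, a ratio of 1.16 (1.03 to 1.29). Its partner ITGB3 was at 2.01 and 2.55 RPKM, a ratio of 1.26 (1.004 to 1.60). The interval of both chains of the alpha-v beta-3 pair thus lay just above 1, as the interval did for 20.0% of all entries with one.

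The beta-6 chain ITGB6 lay on the other side, at 5.93 and 4.37 RPKM, with a ratio of 0.737 (0.626 to 0.866). ITGB8 was at 2.45 and 2.29 RPKM. CD44 was level, at 6.55 and 6.51 RPKM, a ratio of 0.994 (0.816 to 1.21). The alpha chains ITGA9 (1.15 and 1.29 RPKM), ITGA8 (0.705 and 0.978) and ITGA4 (0.452 and 0.435) were low in both libraries. In the control library SPP1 stood below CD44 per length, and in the heat library it stood above every receptor gene matched apart from ITGB1.

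Few of the enzymes that cut, cross-link or phosphorylate osteopontin could be compared. Of 11 listed, 8 were matched and 3 reached a mean of 1 RPKM, while MMP3, CTSD and ACP5 were not matched. The secretory pathway kinase FAM20C stood at 13.6 and 13.3 RPKM, the cross-linking transglutaminase TGM2 at 9.47 and 9.93 RPKM, and the urokinase gene PLAU at 4.27 and 4.03 RPKM. The counting interval of each of these 3 ratios holds 1. Among all entries with an interval, it lay above 1 for 20.0% and below 1 for 9.92%. Thrombin F2, MMP7, MMP9 and PHEX were at most at 0.170 RPKM in either library, and MMP12 was listed at 0 in both.

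The list of factors described as acting on the osteopontin gene had 12 of 15 members matched and 10 compared. Their median was 0.04, which turned to -0.01 after centring and -0.04 after trimmed mean rescaling, and 7 of the 10 were above 0, as 58.8% of all entries were. The AP-1 gene JUNB, at 4.73 and 6.12 RPKM, and the growth factor TGFB1, at 4.62 and 5.97 RPKM, had the highest log2 ratios, both 0.31. Their RPKM ratios were 1.29 each, with an interval of 1.07 to 1.56 for both. The interval lay above 1 for 3 of the 10, the third being FOS at 22.07 and 26.9 RPKM (1.13 to 1.32), and below 1 for none, beside 20.0% and 9.92% of all entries. NFKB1 (13.9 and 12.1 RPKM) and ETS1 (6.94 and 6.31 RPKM) had the lowest, -0.18 and -0.12, with intervals that hold 1. RUNX2, the bone transcription factor, was listed at 0 in both libraries.

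**Figure D3:**
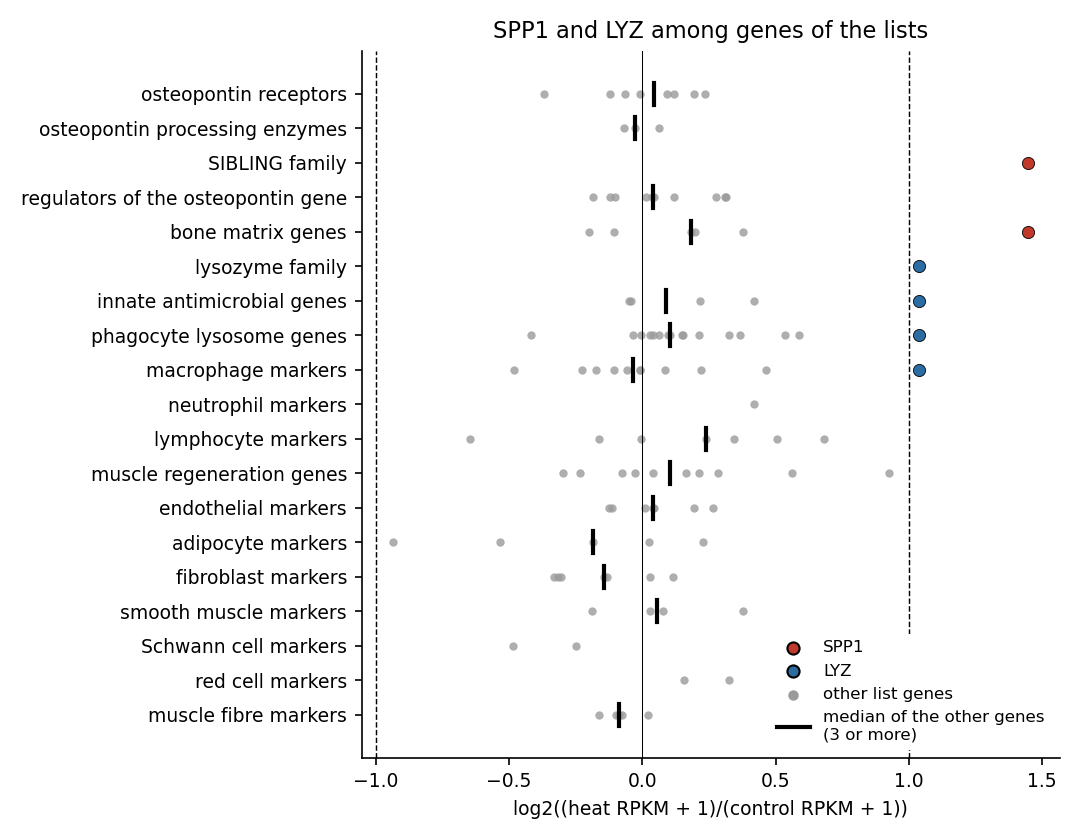
Log2 ratio of heat to control RPKM with a pseudocount of 1 (horizontal axis) for every matched gene with a mean RPKM of at least 1, 1 point per gene, by gene list (rows). SPP1 (red, 1.45) and LYZ (blue, 1.04), both chosen for this difference, lie to the right of all other list genes shown. Black ticks mark the median of the others where a list has at least 3.

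SPP1 is also a gene of mineralised matrix. Without it, 5 of the 14 other genes of that list were compared, with a median of 0.18 and no member past 1.5-fold on the log2(RPKM + 1) scale, as 3.44% of all entries were on the higher and 2.37% on the lower side. Osteomodulin OMD was the highest, at 1.71 and 2.52 RPKM (log2 ratio 0.38), with an RPKM ratio of 1.47 (1.24 to 1.75), followed by the pyrophosphate transporter ANKH at 6.29 and 7.36 RPKM (0.20). ENPP1, which makes pyrophosphate, was the lowest, at 4.24 and 3.57 RPKM (-0.20), and the collagen-binding SPARC came next, at 419 and 389 RPKM (-0.11). With no filter on low values the median of the list, SPP1 included, was -0.08.

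LYZ was set beside other innate antimicrobial genes, of which 10 of 22 were matched and 4 compared. The siderophore-binding LCN2 stood at 2.90 and 4.21 RPKM, with a ratio of 1.45 (1.06 to 2.01), and the oxidase subunit NCF4 at 0.903 and 1.21 RPKM. The defensin DEFB1 (5.27 and 5.10 RPKM) lay slightly on the other side, with a ratio interval that holds 1. Lactoferrin LTF was scarce, at 0.109 and 0.319 RPKM (at least 6 and 17 reads), but its ratio of 2.93 (1.10 to 9.06) was close to that of LYZ.

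Among genes of the phagocyte lysosome, 15 of 21 besides LYZ were matched, and all 15 were compared. On the log2(RPKM + 1) scale 12 of these were above 0 and 3 below, where 58.8% of all entries were above 0, with a median of 0.10. On the same scale 1 was at least 1.5-fold higher and none 1.5-fold lower, beside 3.44% and 2.37% of all entries. That gene was CTSS, cathepsin S, a protease of antigen-presenting cells, with 8.91 RPKM in control and 13.9 RPKM in heat, a ratio of 1.56 (1.26 to 1.93). Galectin-3, LGALS3, came next at 5.07 and 7.81 RPKM, a ratio of 1.54 (1.10 to 2.18). The lipid carrier APOE was the lowest, at 32.2 and 23.9 RPKM, a ratio of 0.742 (0.638 to 0.862), and the tetraspanin CD9 was next, at 41.4 and 40.4 RPKM. The counting interval lay above 1 for 5 of the 13 members that have one and below 1 for 1, beside 20.0% and 9.92% of all entries.

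Markers of macrophages, known sources of both members, were measured beside them. In bulk muscle fewer cells of a type and less RNA per cell cannot be told apart. Apart from LYZ, 15 of 24 macrophage markers were matched, and CD163, AIF1, C1QB and C1QC were among those not matched. Their summed level was 68.4 RPKM in control and 65.2 RPKM in heat, a ratio of 0.953. Of the 10 compared, 3 were above 0 and 7 below, where 58.8% of all entries were above 0. Their median was -0.03, beside 0.05 over all entries. None of the 15 matched markers was listed at 0 in both libraries.

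Single macrophage genes went different ways. Among the 10 compared, the lysosomal marker CD68 was the highest, at 3.61 and 5.36 RPKM, a ratio of 1.49 (1.11 to 1.99), and the Fc receptor chain FCER1G was next, at 8.16 and 9.67 RPKM. The colony-stimulating factor receptor CSF1R, which most macrophages carry, stood at 2.42 and 2.41 RPKM, and complement C1QA at 19.1 and 17.7 RPKM, both with intervals that hold 1. The adaptor TYROBP was the lowest of the 10, at 11.3 and 7.83 RPKM, a ratio of 0.691 (0.527 to 0.902), and the mannose receptor MRC1 was next, at 1.29 and 0.959 RPKM, a ratio of 0.744 (0.556 to 0.991). Of the markers that averaged under 1 RPKM, the integrin chain ITGAM had 1.11 and 0.717 RPKM, a ratio of 0.648 (0.417 to 0.993). The Fc receptor FCGR1A had 0.0835 and 0.474 RPKM from at least 2 and 11 reads, a ratio of 5.68 (1.24 to 52.7). Relative to the summed level of the 15 other markers, SPP1 went from 0.0814 to 0.259 and LYZ from 0.0160 to 0.0505. Each of these quotients was about as far apart as the RPKM values themselves, 3.19-fold for SPP1 and 3.16-fold for LYZ. Both members were chosen on this contrast, and the part of macrophages in either member's difference was not tested.

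**Figure D4:**
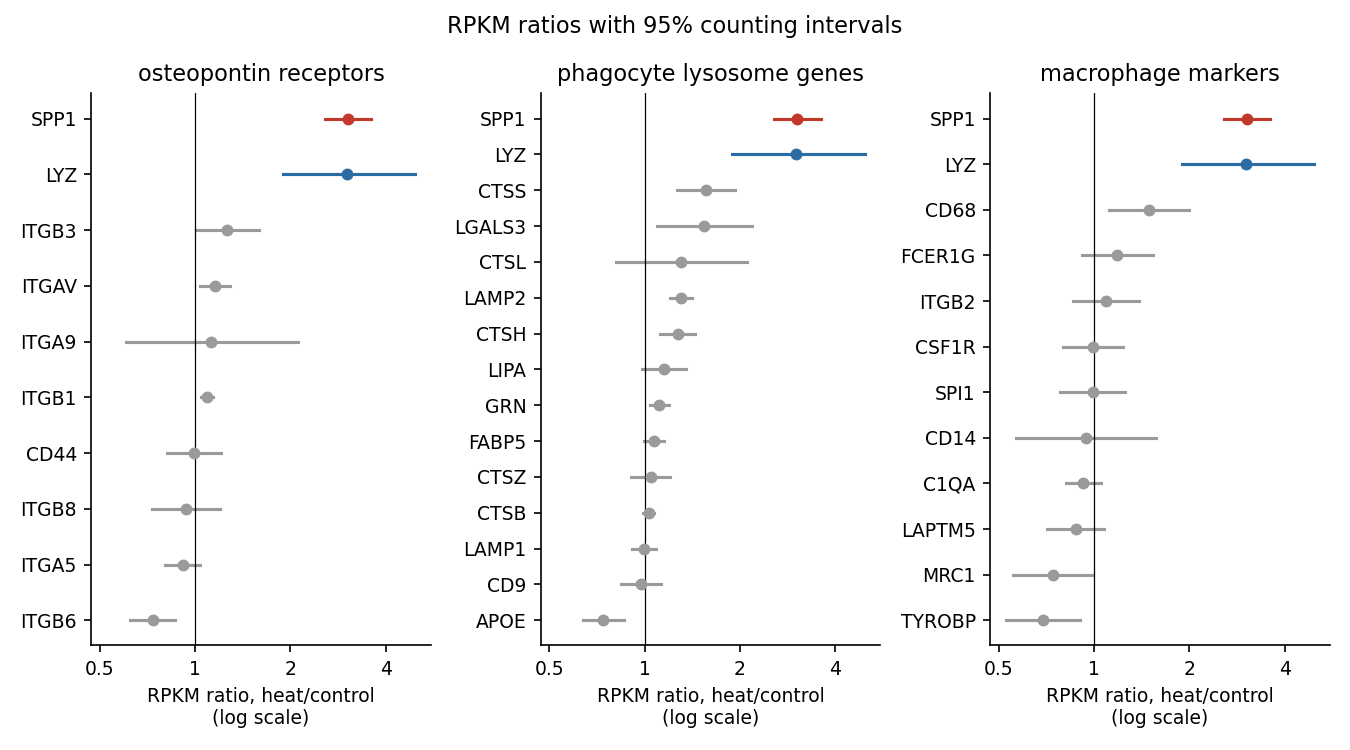
Ratio of heat to control RPKM (horizontal log axis) with its 95% Clopper-Pearson counting interval for SPP1 (red), LYZ (blue) and the other compared genes (grey) of 3 lists for which reads were recovered. The points of SPP1 (3.04) and LYZ (3.02), both chosen for this difference, lie right of all others shown, the highest of which is CTSS at 1.56. The macrophage marker FCGR1A (5.68) averaged under 1 RPKM and is not shown.

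Neutrophil markers were near the floor. Of 7 matched, MPO was listed at 0 in both libraries, and ELANE (0.316 and 0.653 RPKM) and S100A8 (0.246 and 0.846 RPKM) were low, the latter with at least 3 and 10 reads. The S100A8 ratio was 3.44, with an interval of 0.886 to 19.5 that holds 1. Only LCN2 reached a mean of 1 RPKM. The summed level was 3.72 RPKM in control and 6.17 RPKM in heat, of which LCN2 alone made up 2.90 and 4.21 RPKM. LCN2 and LTF also stand on the antimicrobial list above. MMP9 went the other way, at 0.118 and 0.104 RPKM. The part of neutrophils in the LYZ difference was not tested.

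Lymphocyte markers had 14 of 18 members matched, with a summed level of 19.7 RPKM in control and 23.4 RPKM in heat. The 7 compared had a median of 0.24, with 4 above 0 and 3 below, where 58.8% of all entries were above 0. The adhesion receptor CD2 (0.750 and 1.81 RPKM) and the cytokine receptor chain IL2RG (3.03 and 4.73 RPKM) were the highest, and CD8A (1.57 and 0.644 RPKM) and CD3D (1.42 and 1.16 RPKM) the lowest. The B cell gene MS4A1 was at most at 0.0459 RPKM in either library. The part of these cells in either member's difference was not tested.

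Muscle precursor and regenerating fibre genes, the other setting in which osteopontin is known in muscle, were also measured. Of 17 listed, 11 were matched, without PAX7 and MYOG. The 10 compared had a median of 0.10 with 6 above 0 and 4 below, where 58.8% of all entries were above 0. TNNT2 (log2 ratio 0.93) and the fetal actin ACTC1, at 16.8 and 25.4 RPKM (0.56), were the highest. The myogenic factor MYOD1, at 12.9 and 10.3 RPKM (-0.30), and the entry named MYH8, at 6739 and 5737 RPKM (-0.23), were the lowest. The level of that myosin entry is uncertain, since near-identical myosin genes can share reads. The precursor factor MYF5 had 1.02 and 0.598 RPKM from at least 23 and 13 reads, and embryonic myosin MYH3 at 37.2 and 36.5 RPKM. The part of precursor cells in the SPP1 difference was not tested.

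In the remaining cell types no compared gene was 2-fold higher or lower on the log2(RPKM + 1) scale. Of all entries, 0.629% were higher and 0.584% lower by that size. Without a pseudocount the lipid droplet gene CIDEC passed that size, at 7.56 and 3.48 RPKM, a ratio of 0.460 (0.361 to 0.583). Endothelial markers had a median log2 ratio of 0.04 over 7 genes, from TIE1 (-0.13) and KDR (-0.11) to PECAM1 (0.19) and TEK (0.27), and the median was below 0 after centring (-0.01) and trimmed mean rescaling (-0.04). Adipocyte markers had a median of -0.19 over 5, from CIDEC (-0.93) and PLIN1 (-0.53) to ADIG (0.02) and PLIN4 (0.23). Fibroblast markers had a median of -0.14 over 7, from PDGFRA (-0.33) and PCOLCE (-0.32) to DCN (0.03) and FBLN1 (0.12).

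Smooth muscle markers, with CNN1 (-0.19), PDGFRB (0.03), SMTN (0.08) and ACTA2 (0.38), had a median of 0.05, which was -0.02 after trimmed mean rescaling. Of red cell markers HBB (0.32) and HBM (0.16) were compared. ALAS2, the haem synthesis enzyme of red cell precursors, averaged under 1 RPKM and was not compared, but its RPKM ratio was as high as those of SPP1 and LYZ. It had 0.432 and 1.43 RPKM from at least 10 and 32 reads, a ratio of 3.30 (1.58 to 7.54). Muscle fibre genes had a median of -0.09 over 5, from NEB (-0.16) and TNNC2 (-0.10) to ACTA1 (-0.08) and MYL1 (0.02). Their part in the SPP1 and LYZ differences was not tested.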

How the data were processed

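RNA-seq of porcine longissimus dorsi gave 1 library per arm, each from 3 µg of total RNA with poly(A) selection and 10 PCR cycles, per the labels' protocols. The authors deposited RPKM values for 27987 entries. Per the submitters' processing notes, the tools were Cufflinks 1.3.0, TopHat 1.4.0 and Bowtie, with the build Sscrofa10.2. The roles of these tools, the counting of reads with several matches and the use of strand are not given in the sources used here.

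Symbols came from a table of pig gene names (11374 entries matched), whose build may differ from that of the entries. Whole reads and library totals were recovered from the values with Python 3.11.15 and numpy 2.4.6. The factor between library totals was 1.03, and 99.9% of 13134 low entries gave whole read pairs of at most 1000. When the factor was changed slightly, 5.13% did. Reads are the smallest pair that gives a whole gene length within 0.0005 bp. They can be too few, which widens the 95% intervals. Of the 13191 compared entries 96.6% gave reads. The steps were tested on simulated data.

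No test was made, since each group has 1 library. The members and the 19 gene lists (149 of 230 genes matched by exact symbol) were chosen with earlier results of these data known. Named genes are the members, all matched receptor, SIBLING and lysozyme genes, the 2 highest and 2 lowest compared genes of each other list, cell type markers, and the 5 genes most similar to each member. FOS, low genes (LTF, ALAS2, ITGAM, FCGR1A, and the enzymes and factors under 1 RPKM) and chromosomal neighbours were named after their values were seen. Alternatives were other pseudocounts, filters, scalings and repeated symbols. A few list genes that this rule names are not reported here.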

Additional observations from a re-analysis of the deposited data

How the results depend on the processing

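SPP1 and LYZ stayed higher in the heat library under all alternatives run on them. These were 2 pseudocounts, 3 scalings and summing repeated entries, the last of which changed nothing since each symbol has 1 entry. A pseudocount cannot turn the sign of a ratio, and the scalings were small beside these differences. The direction could therefore not have turned, and nothing is read from it. A pseudocount of 0.1 gave LYZ a log2 ratio of 1.51, and a pseudocount of 5 gave SPP1 1.05 and LYZ 0.45. Entries at least 2-fold higher and lower numbered 83 and 77 as reported, 290 and 193 with a pseudocount of 0.1, 7 and 20 with a pseudocount of 5, and 17 and 26 among entries averaging at least 5 RPKM. Scaling without the 10 highest entries gave 97 and 72, trimmed mean rescaling 65 and 85, and centring on the median 68 and 86, so the balance turned with the scaling. Apart from fewer entries tested under the stricter filter and the pseudocount's own shrinkage of low values, the cause was not tested. Scalings moved the median of all entries by less than 0.07 in size (log2). Of the 14 lists with at least 3 compared genes, 7 kept the sign of their median in all alternatives and 7 did not, all of the latter with a reported median of at most 0.19. Leaving SPP1 and LYZ out of the lists was chosen after seeing the data. No paired analysis was possible because 1 library stands for each arm. Of the 2 members depth limits LYZ more, where 1 read was worth 0.0437 RPKM in the control library.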
